A study of Mus musculus with 6 samples.

Results

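Antibiotic depletion of the gut flora before any chemical injury was examined in the colon of wild-type mice, as the difference between 1 single-cell library of pseudo germ-free (pGF) mice and 1 of specific pathogen free (SPF) mice at day 0. The pGF library came from mice given antibiotics for 4 weeks, and the SPF library from control mice. Neither had received dextran sulfate sodium, the agent that injures the colon at the later days of the series. Cells were kept when at least 200 genes were detected and at most 10% of their unique molecules (UMIs) came from mitochondrial (mt-) genes. This gave 1280 pGF cells and 2359 SPF cells, 3639 of the 31304 cells kept over all 6 libraries of the series. Colon pieces had been treated with EDTA to strip the epithelium, digested with Liberase and DNase, and sorted for CD45, a surface protein of blood-derived cells. The antibiotics given and the number of mice in each library are not given in the sources used here. With 1 library a side no difference has a replicate check, no p-value was made, and every value below describes these libraries rather than the conditions.

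The gut flora is known to instruct the immune cells and the lining of the colon before any injury. Plasma cells there secrete mostly immunoglobulin A, which coats bacteria, and intraepithelial T cells carry ready-made granzymes. Resident macrophages keep the tissue quiet with interleukin-10 while they clear debris, and epithelial cells make mucus and antimicrobial lectins, some of them only when bacteria are near.

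The libraries held 32870737 UMIs in pGF and 43949679 in SPF, with a median of 20744 UMIs per kept cell in pGF and 10459 in SPF. The mitochondrial limit was exceeded by 28.1% of pGF barcodes and 22.0% of SPF barcodes. The libraries shared 5 barcodes, of which 2 were kept in both. Cells were assigned to a class when at least 2 of its marker genes were seen and the markers together reached 15 UMIs per 10000 UMIs other than antibody RNA. The 7 plasma, 8 T, 10 macrophage and 12 epithelial markers were all detected in their own class in both libraries. No T cell marker was seen in an epithelial cell. Because cells were gated on these class markers, marker detection and summed marker levels within a class are no independent check of the classes. Summed markers were close in the libraries, at 3436 CPM (UMIs scaled to 1000000 per class) in pGF plasma cells and 3191 CPM in SPF ones. They were 5589 CPM in pGF and 5817 CPM in SPF T cells, and 16730 CPM in pGF and 15388 CPM in SPF macrophages. In epithelial cells they were 22646 CPM in pGF and 24173 CPM in SPF. Median depth was close too in T cells, macrophages and epithelial cells, for example 6374 UMIs in pGF macrophages and 6245 UMIs in SPF macrophages. Plasma cells were deeper in pGF, with a median of 36732 UMIs against 26725 UMIs in SPF.

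Plasma cells and macrophages had similar shares in the libraries, and the classes furthest apart were small. Plasma cells were 46.1% of pGF cells (590 cells) and 49.6% of SPF cells (1170 cells), a log2 ratio of -0.11 with a 95% interval from -0.25 to 0.04. Macrophages were 12.6% of pGF cells and 13.1% of SPF cells. T cells were 17.97% of pGF cells (230 cells) and 15.2% of SPF cells (358 cells), a log2 ratio of 0.24 (-0.0016 to 0.49). It was 0.28 (0.028 to 0.52) at a mitochondrial limit of 5% and 0.30 (0.063 to 0.54) with the gate level halved, intervals that left out 0, but 0.08 (-0.16 to 0.33) among cells with at least 500 genes. These intervals are exact (Clopper-Pearson for shares, conditional Poisson for ratios) and cover counting error only. The plasma share rests on the gate: 1 ungated pGF barcode and 166 ungated SPF barcodes held at least 20% antibody UMIs. With those counted, plasma cells were 591 in pGF and 1336 in SPF, a log2 ratio of -0.29 (-0.44 to -0.15), and with cells thinned to 2000 UMIs it was -0.22 (-0.38 to -0.064). Ungated SPF barcodes had a median of 1046 UMIs, so that low-depth plasma cells and empty droplets with free antibody RNA cannot be told apart.

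Classes that a CD45 sort should remove, and rare lymphocytes, were a larger share of the pGF library. Epithelial cells were 8.52% of pGF cells (109 cells) and 5.26% of SPF cells (124 cells), a log2 ratio of 0.70 (0.31 to 1.08). Fibroblast or smooth muscle cells were 2.81% of pGF cells (36 cells) and 1.23% of SPF cells (29 cells). The sort and the EDTA step can set both shares, and at a mitochondrial limit of 5% the epithelial log2 ratio was 0.34 (-0.25 to 0.92). Innate lymphoid cells were 20 in pGF and 10 in SPF, or 1.56% in pGF and 0.424% in SPF. B cells were 9 in pGF and 1 in SPF. Neutrophils, the first white cells to enter inflamed tissue, were 5 of 1280 pGF cells and 2 of 2359 SPF cells. Within the T class, cells with at least 2 of the gamma and delta receptor chain genes Trdc, Tcrg-C1, Tcrg-C2 and Tcrg-C4 were 59.6% in pGF (137 cells) and 61.2% in SPF (219 cells), and their intervals overlapped. Gamma chain RNA is also found in other T cells, and Trdc, the delta chain, was seen in 36.5% of pGF T cells (30.3 to 43.1) and 45.5% of SPF T cells (40.3 to 50.8). After thinning to 2000 UMIs Trdc was seen in 21.1% of pGF (15.9 to 27.0) and 33.3% of SPF T cells (28.2 to 38.7), intervals that did not overlap. Cells with both Cd8a and Cd8b1 were 8.70% of pGF T cells and 13.7% of SPF T cells, again with overlapping intervals.

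**Figure D1:**
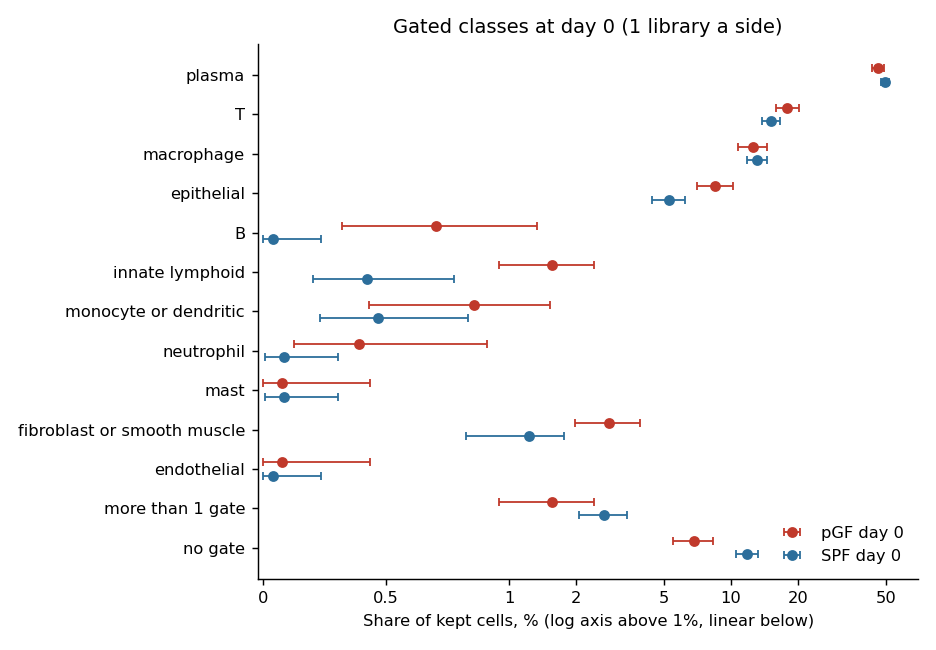
Share of kept cells in each marker-gated class in the pGF library (red, upper point of each pair) and the SPF library (blue, lower point) at day 0, in percent, on an axis that is logarithmic above 1% and linear below. Bars are exact 95% binomial intervals, which cover counting error only. Plasma and macrophage shares lie close together, while the epithelial share is 8.52% in pGF and 5.26% in SPF.

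Across all genes, levels within a class were close in the libraries, and antibody genes apart, more genes were 2-fold apart in macrophages and epithelial cells than in T or plasma cells. The classes differ in their number of cells and in antibody RNA, so this is not a like comparison. Antibody RNA was a median of 61.2% of UMIs in pGF plasma cells and 0.387% in pGF T cells. UMIs were summed over the cells of a class and scaled to CPM, and fold changes were taken as pGF over SPF on log2(CPM + 10), a scale that understates changes of low genes. Genes with at least 10 CPM in either library were compared, and a gene is counted below when it was at least 2-fold apart and the counting interval of its ratio left out 1. In plasma cells 49 of 4904 genes were counted as higher in pGF (0.999%) and 82 as lower (1.67%). In T cells 38 of 8206 were higher (0.463%) and 49 lower (0.597%). In macrophages 52 of 7589 were higher (0.685%) and 75 lower (0.988%). In epithelial cells 23 of 8121 were higher (0.283%) and 43 lower (0.529%). The median log2 fold over all compared genes was between -0.02 and 0.03 in the 4 classes. These shares and medians over all genes are the values to set beside the counts of listed genes below. The middle 90% of genes spanned -0.27 to 0.22 in plasma cells and -0.53 to 0.49 in macrophages.

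Antibody genes made up most of the counted genes in plasma cells and many in the others. In plasma cells all 49 higher genes and 75 of the 82 lower genes were antibody genes. In T cells 23 of the 38 higher genes and 29 of the 49 lower genes were antibody genes, and 18 and 22 of them were counted the same way in plasma cells. In macrophages the numbers were 25 of 52 higher, of which 20 as in plasma cells, and 31 of 75 lower, of which 17. Igha, the heavy chain of immunoglobulin A, stood at 451 CPM in pGF macrophages and 4853 CPM in SPF macrophages, with at least 20% antibody UMIs in 1 pGF and 7 SPF macrophages. Free antibody RNA and joined cells were not separated, so antibody genes outside plasma cells are given as counts here. Apart from antibody, receptor, ribosomal protein and unnamed genes, 8 higher and 17 lower genes were left in T cells, 25 and 43 in macrophages, and 15 and 42 in epithelial cells. Of these, 9 of the 17 lower T cell genes, 15 of the 25 higher macrophage genes and 24 of the 42 lower epithelial genes had over 25% of their UMIs in 1 cell of the higher library. The genes described below by rank had UMIs in at least 10 cells of the higher library, with none holding over 25%.

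**Figure D2:**
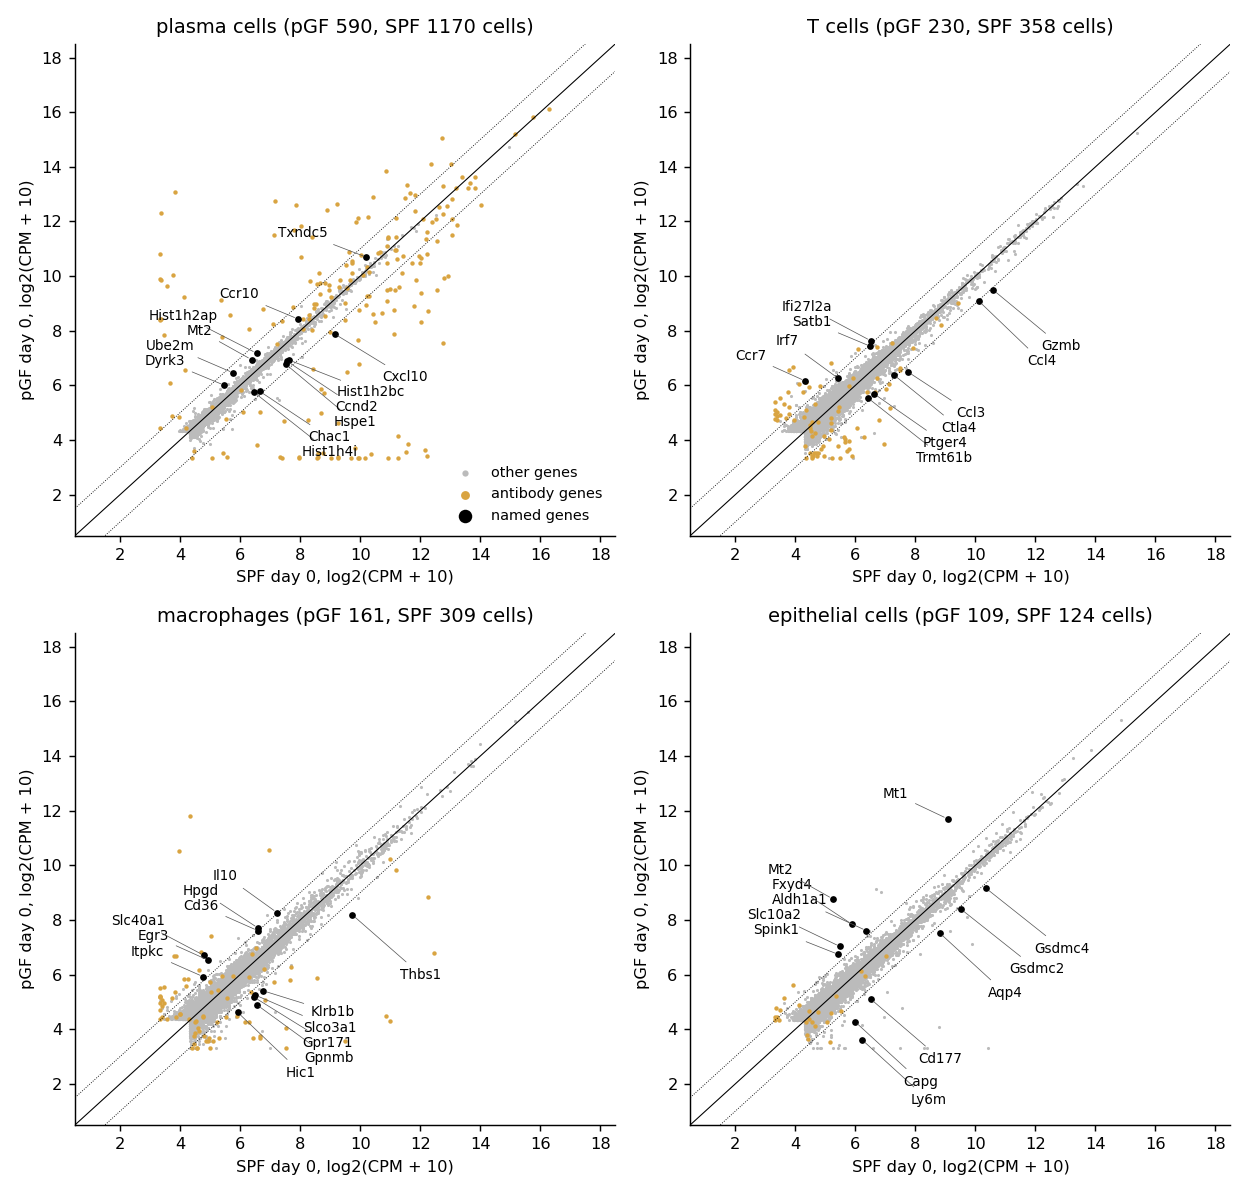
Level of every compared gene in the SPF library (x axis) and the pGF library (y axis) at day 0, in log2(CPM + 10), for each of the 4 classes; dotted lines mark a 2-fold difference. Antibody genes (yellow) scatter widely in plasma cells, while most other genes (grey) lie near the diagonal, and Mt1 and Mt2 stand apart above it in epithelial cells.

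Metallothioneins led the genes that were higher in pGF epithelial cells. Metallothioneins are small proteins that bind zinc and copper and are induced by both metals. Mt2 is also in the list of glucocorticoid-responsive genes. Of 10 such genes measured in epithelial cells, 9 lay above 0 and 2 were counted as higher. Their median log2 fold was 0.21, against -0.02 over all genes. The part of metals or glucocorticoids in these values was not tested. Mt2 had 1362 UMIs in 67 of 109 pGF epithelial cells, or 427 CPM, and 99 UMIs in 27 of 124 SPF epithelial cells, or 27.9 CPM. The log2 fold was 3.53, and the ratio of CPM lay between 12.5 and 18.9 by counting error. Mt1 had 10610 UMIs in 104 pGF cells, or 3328 CPM, and 1871 UMIs in 91 SPF cells, or 528 CPM, a log2 fold of 2.63 with a ratio between 6.0 and 6.62. The median epithelial cell held 1666 CPM of Mt1 in pGF and 331 CPM in SPF. For Mt2 the median was 81.1 CPM in pGF against 0 in SPF. With every cell thinned to 2000 UMIs, Mt1 was seen in 85.6% of pGF and 49.5% of SPF epithelial cells, and in 32.5% of pGF and 20.4% of SPF plasma cells. Mt2 was seen in 37.1% of pGF and 6.42% of SPF epithelial cells, in 14.5% of pGF and 11.0% of SPF plasma cells, and in 2.24% of pGF and 1.53% of SPF T cells. Free RNA and expression cannot be told apart at the SPF epithelial level of Mt2. Thinning left out 12 pGF and 15 SPF epithelial cells, 31 pGF and 64 SPF macrophages, 7 pGF and 31 SPF T cells, and 2 pGF and 119 SPF plasma cells below that depth. Without the cell that held the most UMIs in each library the log2 folds were 3.54 for Mt2 and 2.60 for Mt1. They were smaller at the 5% mitochondrial limit, at 2.57 and 1.80. Epithelial cells had a median mitochondrial share of 5.76% in pGF and 4.77% in SPF, and its part in the result was not tested.

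**Figure D3:**
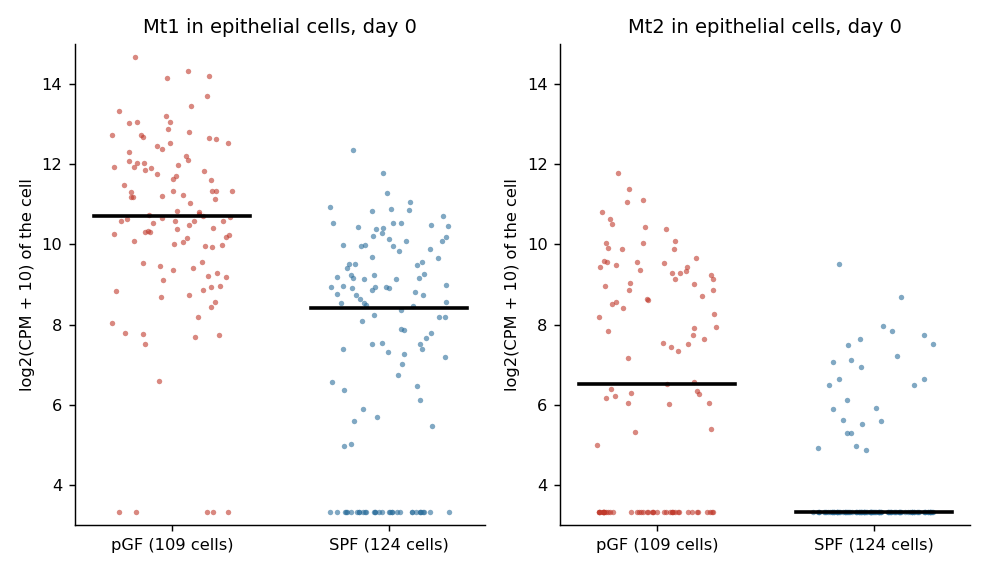
Mt1 (left) and Mt2 (right) in each epithelial cell at day 0, as log2(CPM + 10) of the cell's own UMIs; each point is 1 cell, pGF in red on the left and SPF in blue on the right, and the black line is the median. The row of points at the bottom is cells with no UMI of the gene. The median cell held 1666 CPM of Mt1 in pGF and 331 CPM in SPF.

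By subset, the difference was larger in absorptive cells than in goblet cells, with few cells in each. In the 37 pGF and 37 SPF cells with absorptive markers, which take up salt, water and short-chain fatty acids, Mt1 was at 3187 CPM in pGF against 268 CPM in SPF. Mt2 was there at 414 CPM in pGF against 7.23 CPM in SPF. In the 14 pGF and 8 SPF goblet cells Mt1 was at 690 CPM in pGF against 501 CPM in SPF, and Mt2 at 31.5 CPM in pGF against 40.6 CPM in SPF. Outside the epithelium the libraries were closer. In macrophages Mt1 stood at 1660 CPM in pGF against 1656 CPM in SPF, and in T cells at 45.8 CPM in pGF against 76.5 CPM in SPF. In plasma cells Mt1 was at 466 CPM in pGF against 251 CPM in SPF, a log2 fold of 0.87, and Mt2 at 113 CPM in pGF against 73.3 CPM in SPF.

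Zinc carriers of the epithelium were looked at beside the metallothioneins, and were chosen after their values had been seen. Slc30a1, which exports zinc from the cell, was at 83.8 CPM in pGF (66 cells) against 44.9 CPM in SPF (57 cells), a log2 fold of 0.77. Thinned to 2000 UMIs it was seen in 11.3% of pGF and 11.0% of SPF epithelial cells, and at day 2 it stood at 46.9 CPM in pGF against 43.9 CPM in SPF. Slc39a4, which imports zinc, was at 70.9 CPM in pGF (66 cells) against 150 CPM in SPF (85 cells), a log2 fold of -0.99. Thinned it was seen in 8.25% of pGF and 22.0% of SPF cells, and at day 2 it stood at 60.6 CPM in pGF against 113 CPM in SPF. In the absorptive cells Slc39a4 was at 102 CPM in pGF against 226 CPM in SPF, with UMIs in 34 of 37 cells in each. Neither carrier reached the 2-fold limit.

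The start regions of these genes were searched for the metal response element, the site that the zinc-sensing factor MTF-1 binds in mouse cells, and are shown because Mt1 and Mt2 were both higher in pGF. The windows run from 250 bases before the start to 50 after it (RefSeq, GRCm38.p6), and 3 of the 4 genes matched the table. Capitals mark the core letters TGCACNC or TGCGCNC on either strand. Mt2 lies on the plus strand at chr8:94172368-94172667 and held 4 matches, 2 of them on the minus strand. Mt1 lies next to it on the plus strand at chr8:94178839-94179138 and held 3. Slc30a1 lies on the plus strand at chr1:191906531-191906830 and held 2. Of further zinc carriers searched, Slc30a10 held 3 and neither start of Slc39a10 held any.
Mt2: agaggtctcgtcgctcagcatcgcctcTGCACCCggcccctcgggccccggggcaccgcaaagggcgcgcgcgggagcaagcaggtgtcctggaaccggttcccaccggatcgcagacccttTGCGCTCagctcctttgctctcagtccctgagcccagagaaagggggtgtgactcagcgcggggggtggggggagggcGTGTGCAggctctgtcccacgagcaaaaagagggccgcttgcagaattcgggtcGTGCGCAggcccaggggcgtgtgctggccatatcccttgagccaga
Mt1: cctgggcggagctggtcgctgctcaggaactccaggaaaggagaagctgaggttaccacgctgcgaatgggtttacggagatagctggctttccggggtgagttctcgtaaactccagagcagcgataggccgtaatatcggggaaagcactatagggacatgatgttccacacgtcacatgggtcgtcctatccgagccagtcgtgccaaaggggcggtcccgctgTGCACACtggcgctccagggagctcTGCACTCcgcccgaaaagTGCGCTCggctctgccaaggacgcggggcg
Slc30a1: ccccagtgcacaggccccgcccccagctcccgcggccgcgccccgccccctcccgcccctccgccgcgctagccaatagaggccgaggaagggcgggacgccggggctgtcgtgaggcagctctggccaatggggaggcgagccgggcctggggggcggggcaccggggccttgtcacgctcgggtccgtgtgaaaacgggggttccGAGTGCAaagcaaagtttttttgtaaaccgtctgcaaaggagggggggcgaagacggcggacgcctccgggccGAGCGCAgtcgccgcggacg
Of 32851 such windows in the table, 25.7% held at least 1 match and 1.97% at least 3. A match describes the letters only, and binding was not measured.

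Carriers of bile acids and a retinoid enzyme were also higher in the pGF epithelium. Slc10a2, which takes up bile acids, was at 121 CPM in pGF (31 cells) against 34.7 CPM in SPF (25 cells), a log2 fold of 1.55. Slc51a, a part of the carrier that passes bile acids on to the blood, was at 159 CPM in pGF against 73.4 CPM in SPF, a log2 fold of 1.02. Aldh1a1, which makes retinoic acid, was at 185 CPM in pGF against 72.5 CPM in SPF, a log2 fold of 1.24, and of 0.21 at the 5% mitochondrial limit, where 43 pGF and 65 SPF cells were left. Fxyd4, a regulator of the sodium pump, was at 220 CPM in pGF (19 cells) against 49.1 CPM in SPF (13 cells), a log2 fold of 1.96 and of 0.66 at that limit. The trypsin inhibitor Spink1 was at 96.9 CPM in pGF against 33.0 CPM in SPF, a log2 fold of 1.31, of 2.01 at that limit and of 0.78 at a limit of 20%. At day 2 Spink1 was lower in pGF, with a log2 fold of -0.44.

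Lower in the pGF epithelium were gasdermins, a water channel and surface proteins. Ly6m, of the Ly6 family, had 7 UMIs in 4 pGF cells and 230 UMIs in 16 SPF cells, a log2 fold of -2.62, and of -1.03 at a mitochondrial limit of 20%. The gasdermins Gsdmc4 and Gsdmc2, of a family of pore-forming proteins, were seen in most epithelial cells of both libraries, but their difference was smaller in absorptive cells. In the 37 pGF and 37 SPF absorptive cells Gsdmc4 was at 593 CPM in pGF against 817 CPM in SPF, a log2 fold of -0.46. Gsdmc2 was there at 417 CPM in pGF against 503 CPM in SPF, a log2 fold of -0.27. Over all epithelial cells the values were further apart. Gsdmc4 was at 559 CPM in pGF (70 of 109 cells) against 1307 CPM in SPF (91 of 124 cells), a log2 fold of -1.21, and Gsdmc2 at 326 CPM in pGF against 725 CPM in SPF, a log2 fold of -1.13. Gsdmc2 and Aqp4 were further apart at the 5% limit, at -2.03 and -1.96. The water channel Aqp4 was at 175 CPM in pGF (41 cells) against 437 CPM in SPF (69 cells), a log2 fold of -1.27. Cd177 was at 24.5 CPM in pGF (14 cells) against 81.0 CPM in SPF (40 cells), a log2 fold of -1.40, and of -0.64 at the 5% limit. Capg, which caps actin filaments, was at 9.41 CPM in pGF (19 cells) against 53.3 CPM in SPF (50 cells). Plasma cells held more Capg than that, at 98.6 CPM in pGF against 109 CPM in SPF, so free RNA and expression cannot be told apart for it.

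Antimicrobial lectins and a target of the aryl hydrocarbon receptor were lower in the pGF epithelium and rested on few cells. Reg3b, a lectin that targets bacteria, had 22 UMIs in 5 pGF cells and 1537 UMIs in 15 SPF cells, with 34.1% of the SPF UMIs in 1 cell. Its relative Reg3g had 31 UMIs in 6 pGF cells and 137 UMIs in 15 SPF cells. Duoxa2, needed to make hydrogen peroxide at the surface, was at 3.76 CPM in pGF (7 cells) against 26.2 CPM in SPF (31 cells). Cyp1a1, the classic target of the aryl hydrocarbon receptor, had no UMI in pGF and 145 UMIs in 20 SPF cells, or 40.9 CPM. Against a floor of 3 counts over the pGF cells it was at least 43.5-fold lower in pGF. Cyp1a1 had no UMI in the 827 SPF or the 1221 pGF epithelial cells of day 2 either. Of 9 measured genes of microbial sensing and targets of this receptor, Cyp1a1 alone was counted. In that list 6 genes lay above 0 at day 0, with a median of 0.13. Cd74, the invariant chain of antigen presentation, was at 7.84 CPM in pGF against 36.7 CPM in SPF, but after thinning it was seen in 3.09% of pGF and 2.75% of SPF epithelial cells, and in 99.2% of pGF and 98.9% of SPF plasma cells, so that free RNA and expression cannot be told apart for it.

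Among 14 measured antimicrobial genes 1 was higher by 2-fold (Zg16) and 4 were lower (Reg3b, Reg3g, Ang4 and Duoxa2), with a median log2 fold of -0.33 against -0.02 over all genes, and of 0.07 among those with at least 50 CPM. Among 18 measured mucus and goblet genes, 2 were higher (Tff3 and Zg16) and 2 lower (Clca1 and Fcgbp), with a median of -0.11. These rested on few goblet cells, 14 in pGF and 8 in SPF. Clca1 in goblet cells was at 1426 CPM in pGF against 11023 CPM in SPF, and Zg16 at 5373 CPM in pGF against 988 CPM in SPF, and 1 cell held 55.1% of all epithelial Zg16 UMIs in pGF and 77.5% in SPF. Muc2, the main mucin, was at 22820 CPM in pGF goblet cells and 15378 CPM in SPF goblet cells. Of 18 measured genes of butyrate use and ketogenesis none passed 2-fold in either direction, and their median was 0.0050. Of 19 ion transport genes, Aqp4 alone passed, and the median was 0.02. The 20 cell cycle genes held none past 2-fold, although 19 lay below 0 with a median of -0.32. The 5% mitochondrial limit turned the sign of each of these 4 medians, to 0.35 for mucus and goblet genes, -0.36 for butyrate use, -0.41 for ion transport and 0.26 for cell cycle genes. Plasma cell markers summed to 129 CPM in pGF against 136 CPM in SPF epithelial cells, and macrophage markers to 49.2 CPM in pGF against 48.5 CPM in SPF.

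Macrophages of the pGF library carried more of the iron exporter, of interleukin-10 and of chemokines, and less thrombospondin. Slc40a1 (ferroportin), the iron exporter, was at 93.9 CPM in pGF (41 of 161 cells) against 17.8 CPM in SPF (24 of 309 cells), a log2 fold of 1.90 and a ratio between 3.60 and 7.86. Il10, a brake on inflammation, was at 299 CPM in pGF (53 cells) against 140 CPM in SPF (70 cells), a log2 fold of 1.04. Cd36, a receptor for lipids, was at 185 CPM in pGF (70 cells) against 86.3 CPM in SPF (92 cells), a log2 fold of 1.02. Hpgd, which degrades prostaglandins, was at 199 CPM in pGF (78 cells) against 86.8 CPM in SPF (99 cells), a log2 fold of 1.11. After thinning to 2000 UMIs, Slc40a1 was seen in 15.4% of pGF and 3.27% of SPF macrophages, and in 0% of pGF and 0.0951% of SPF plasma cells. The early transcription factor Egr3 was at 82.2 CPM in pGF against 20.6 CPM in SPF, a log2 fold of 1.59, and Itpkc, an inositol phosphate kinase, at 50.6 CPM in pGF against 17.4 CPM in SPF, a log2 fold of 1.15.

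Lower in pGF macrophages were a matrix protein, a growth factor and several surface proteins. Thbs1 (thrombospondin), a secreted matrix protein, had 312 UMIs in 51 of 161 pGF cells, or 282 CPM, and 1799 UMIs in 136 of 309 SPF cells, or 844 CPM. Its log2 fold was -1.55 and its ratio lay between 0.30 and 0.38. Vegfa, the blood vessel growth factor, was at 40.6 CPM in pGF (19 cells) against 106 CPM in SPF (59 cells), a log2 fold of -1.20. Klrb1b, a lectin-like receptor, was at 32.5 CPM in pGF (22 cells) against 98.04 CPM in SPF (91 cells), a log2 fold of -1.35. Gpnmb, a glycoprotein of lipid-laden macrophages, was at 19.9 CPM in pGF (11 cells) against 83.5 CPM in SPF (36 cells), a log2 fold of -1.65. Hic1, a repressor, Gpr171, a receptor, and Slco3a1, an organic anion carrier, had log2 folds of -1.31, -1.28 and -1.26, with UMIs in 10, 17 and 29 pGF cells and in 68, 70 and 92 SPF cells.

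The most abundant chemokines were higher in pGF macrophages by less than 2-fold. Cxcl2, which draws neutrophils, had 8195 UMIs in 122 pGF cells, or 7401 CPM, and 8929 UMIs in 220 SPF cells, or 4188 CPM. Cxcl1 was at 1099 CPM in pGF against 579 CPM in SPF, and Ccl2, which draws monocytes, at 969 CPM in pGF against 568 CPM in SPF. Ccl4 was at 4572 CPM in pGF against 2549 CPM in SPF, and Tnf at 326 CPM in pGF against 168 CPM in SPF. Cxcl1, Cxcl2, Ccl2, Ccl3, Ccl4 and Tnf summed to 16053 CPM in pGF against 8963 CPM in SPF, with UMIs in 93.2% of pGF and 90.9% of SPF macrophages. Of 22 measured inflammatory cytokines and chemokines, 15 lay above 0, 4 were counted as higher (Ccl5, Cxcl3, Cxcl9 and Acod1) and none as lower, with a median log2 fold of 0.42 against -0.02 over all genes. Cxcl3 had 82.2% of its pGF UMIs in 1 cell, and Acod1 20 UMIs in 8 pGF cells. T cell markers, beside Ccl5, a chemokine of T cells also, summed to 77.7 CPM in pGF against 66.1 CPM in SPF macrophages, and their part in that value was not tested.

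Of 24 homeostatic gut macrophage genes 20 lay above 0, with Il10 alone counted and a median of 0.30. Of 11 iron and haem genes 10 lay above 0, with Slc40a1 alone counted and a median of 0.43, and the haem-degrading Hmox1 was at 309 CPM in pGF against 194 CPM in SPF. The haem-regulated factor Spic was at 47.0 CPM in pGF against 23.9 CPM in SPF. Of 18 repair and growth factor genes 3 were higher (Areg, Spp1 and Mmp9) and 3 lower (Vegfa, Thbs1 and Chil3). Over all compared macrophage genes 0.685% were counted as higher and 0.988% as lower. Spp1 had 79.2% of its pGF UMIs in 1 cell, Mmp9 27.4%. Of 14 antigen presentation genes, H2-Oa, which restrains peptide loading, alone was counted, at 7.22 CPM in pGF (8 cells) against 35.6 CPM in SPF (41 cells). Its partner H2-Ob was at 17.2 CPM in pGF against 39.9 CPM in SPF. Of 29 oxidative phosphorylation genes none passed 2-fold, and 26 lay below 0 with a median of -0.24. The neutrophil alarmins S100a8 and S100a9 had no UMI in the macrophages of either library.

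T cells of the pGF library held less granzyme B and less of the chemokines Ccl3 and Ccl4, and more Ccr7 and Ifi27l2a. Gzmb, a granzyme that kills target cells, had 985 UMIs in 62 of 230 pGF cells, or 705 CPM, and 2767 UMIs in 141 of 358 SPF cells, or 1546 CPM, a log2 fold of -1.12 with a ratio between 0.42 and 0.49. Ccl3 and Ccl4, chemokines of activated T cells, had log2 folds of -1.25 and -1.04. Ccl3 was seen in 31 pGF and 68 SPF cells, and Ccl4 in 61 pGF and 125 SPF cells. Ptger4, a prostaglandin receptor, was at 41.5 CPM in pGF against 88.8 CPM in SPF, a log2 fold of -0.94. Ctla4, a brake on T cells, was at 73.8 CPM in pGF (53 cells) against 145 CPM in SPF (105 cells), a log2 fold of -0.89, but after thinning it was seen in 29 of 223 pGF and 57 of 327 SPF T cells and in 25.7% of pGF and 27.8% of SPF plasma cells, so that free RNA and expression cannot be told apart for it. Trmt61b, a tRNA methyltransferase, had a log2 fold of -0.88. Ccr7, the receptor that leads T cells to lymph nodes, had 86 UMIs in 15 pGF cells and 18 UMIs in 6 SPF cells, a log2 fold of 1.84. Satb1, a chromatin organiser of young T cells, was at 163 CPM in pGF (106 cells) against 80.4 CPM in SPF (94 cells), a log2 fold of 0.93. The interferon-induced Ifi27l2a was at 188 CPM in pGF (68 cells) against 81.6 CPM in SPF (61 cells), a log2 fold of 1.12. In T cells its log2 fold was 0.82 at day 2 and -0.05 at day 7. In day 0 macrophages Ifi27l2a was lower in pGF, at 439 CPM against 955 CPM in SPF. Irf7 in T cells was at 66.6 CPM in pGF against 33.0 CPM in SPF, a log2 fold of 0.83.

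By subset, the Gzmb values were further apart among cells with gamma and delta chain genes, as defined above, and the Ccr7 values outside them. Trdc itself was seen in 77 of these 137 pGF cells and 149 of these 219 SPF cells, so the subset may hold other T cells, in shares that may differ between the libraries. In this subset Gzmb was at 857 CPM in pGF against 1999 CPM in SPF, and Ccl4 at 422 CPM in pGF against 1166 CPM in SPF. In the other 93 pGF and 139 SPF T cells Gzmb was at 427 CPM in pGF against 564 CPM in SPF, and Ccl4 at 735 CPM in pGF against 960 CPM in SPF. Ccr7 had 72 of its 86 pGF UMIs outside this subset, in 12 cells, against 10 UMIs in 3 SPF cells there. Ifi27l2a was at 227 CPM in pGF against 72.7 CPM in SPF within it, and at 118 CPM in pGF against 101 CPM in SPF outside it. Gzma, another granzyme, was at 4627 CPM in pGF against 6172 CPM in SPF over all T cells. Within the subset Gzma was at 5771 CPM in pGF against 8219 CPM in SPF, a log2 fold of -0.51. The subset held 5222 of the 6460 pGF Gzma UMIs and 10066 of the 11049 SPF ones, so the Gzmb pattern does not extend to Gzma. The part of the subset's makeup in these values was not tested.

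Of 10 cytotoxic granule genes Gzmb alone was counted, with 7 below 0 and a median of -0.12. Of 8 naive and lymph-node homing genes Ccr7 alone was counted, 7 lay above 0, and the median was 0.37 against 0.03 over all genes; Lef1, a factor of naive T cells, was at 38.7 CPM in pGF against 16.2 CPM in SPF. All 21 measured AP-1 immediate-early genes lay below 0, with a median of -0.45, and Egr1 alone was counted, at 90.2 CPM in pGF against 196 CPM in SPF. In macrophages 18 of 22 of the same genes lay above 0, with a median of 0.22. Of 16 cell cycle genes in T cells 15 lay above 0 with a median of 0.40, and Stmn1 was counted, with over 25% of its UMIs in 1 cell of each library. Il17a had no pGF UMI and 90 SPF UMIs, all in 1 cell. Epithelial markers in T cells summed to 191 CPM in pGF against 220 CPM in SPF.

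In plasma cells the secretory genes were close in the libraries, and the genes furthest apart besides antibody genes were a chemokine and chaperones. Of 26 measured genes of antibody secretion and the unfolded protein response none passed 2-fold, and the median was -0.08. Of 12 survival and identity genes none passed either. Cxcl10, a chemokine induced by interferon, had 5323 UMIs in 288 of 590 pGF cells, or 226 CPM, and 17664 UMIs in 704 of 1170 SPF cells, or 557 CPM, a log2 fold of -1.26. After thinning it was seen in 18.7% of pGF and 36.3% of SPF plasma cells, and in 4.04% of pGF and 3.67% of SPF T cells. The chaperones Hspa1a and Hspa1b, made under heat and other stress, together had UMIs in 16.4% of pGF and 32.4% of SPF plasma cells, at 70.7 CPM in pGF against 286 CPM in SPF. All 12 measured chaperones lay below 0, with a median of -0.54, and Hspa1a and Hspa1b were counted. Their medians were -0.34 in T cells, -0.14 in macrophages and -0.20 in epithelial cells. Irf8 was at 11.1 CPM in pGF (136 cells) against 33.1 CPM in SPF (451 cells), and Ifi27l2a at 120 CPM in pGF against 255 CPM in SPF. Lyz2, an enzyme of macrophages, was the other named gene counted as lower, with UMIs in 23 pGF and 87 SPF plasma cells. Macrophage markers in plasma cells summed to 9.94 CPM in pGF against 13.7 CPM in SPF.

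Smaller differences followed in plasma cells by rank. Chac1, a target of the unfolded protein response, was at 44.9 CPM in pGF against 90.8 CPM in SPF, a log2 fold of -0.88. Hspe1, Hist1h4i, Hist1h2bc and the cyclin Ccnd2 had log2 folds of -0.76, -0.71, -0.70 and -0.67. No gene other than antibody genes was counted as higher. Mt1, with a log2 fold of 0.87, was below the level in its highest class that the naming rule asks for, and the furthest of the genes that met the rule was Ube2m, a neddylation enzyme, at 77.8 CPM in pGF against 44.6 CPM in SPF, a log2 fold of 0.69. Hist1h2ap, Mt2 and the kinase Dyrk3 had log2 folds of 0.63, 0.56 and 0.54. Ccr10, the receptor by which plasma cells that make immunoglobulin A home to mucosa, was at 335 CPM in pGF (557 cells) against 233 CPM in SPF (977 cells), a log2 fold of 0.51. Txndc5, which folds proteins in the secretory pathway, was at 1646 CPM in pGF against 1174 CPM in SPF, a log2 fold of 0.48. The 16 measured cell cycle genes all lay above 0, with a median of 0.25 and none past 2-fold.

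Nearly all plasma cells made immunoglobulin A in both libraries. Igha was the leading heavy-chain constant gene in 586 of 590 pGF cells (99.3%, 98.3 to 99.8) and in 1132 of 1170 SPF cells (96.8%, 95.6 to 97.7). Cells led by Ighg1, an immunoglobulin G chain, were 3 in pGF (0.508%, 0.105 to 1.48) and 26 in SPF (2.22%, 1.46 to 3.24). Cells led by Ighm, the chain of immunoglobulin M, were 0 of 590 in pGF, which allows a share of up to 0.508% by the floor of 3 counts and 0.623% by the exact interval, and 7 in SPF (0.598%). The summed levels follow these few cells. Ighg1 stood at 225 CPM in pGF, with 72.5% of its UMIs in 1 cell, and at 2238 CPM in SPF, where the Ighg1-led cells held 91.0%. Ighg2c, at 84.2 CPM in pGF against 7.75 CPM in SPF, had 74.3% of its pGF UMIs in 1 cell. Cells whose light chain was mainly lambda were 3.56% in pGF and 3.85% in SPF.

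Variable genes of the heavy chain, which shape the binding site, differed in rank. A leading Ighv gene was found in 580 pGF and 1083 SPF plasma cells. Ighv1-26 led in both, in 14.8% of pGF cells (12.0 to 17.98) and 8.03% of SPF cells (6.48 to 9.81). Ighv6-3 led 7.07% of pGF cells and 1.29% of SPF cells, and Ighv1-77 led 4.66% of pGF and 0.369% of SPF cells. Ighv9-3 led 0.345% of pGF cells and 7.94% of SPF cells, and Ighv1-55 led 0.862% of pGF and 5.82% of SPF cells. The 5 leading genes held 37.6% of pGF cells and 29.8% of SPF cells, and the effective number of leading genes (the inverse of the summed squared shares) was 21.0 in pGF and 31.2 in SPF. Related variable genes can share reads, and cells of 1 clone share a gene, so these cells are not independent. The number of mice behind each library was not given, and differences between mice cannot be told apart from differences between the arms.

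**Figure D4:**
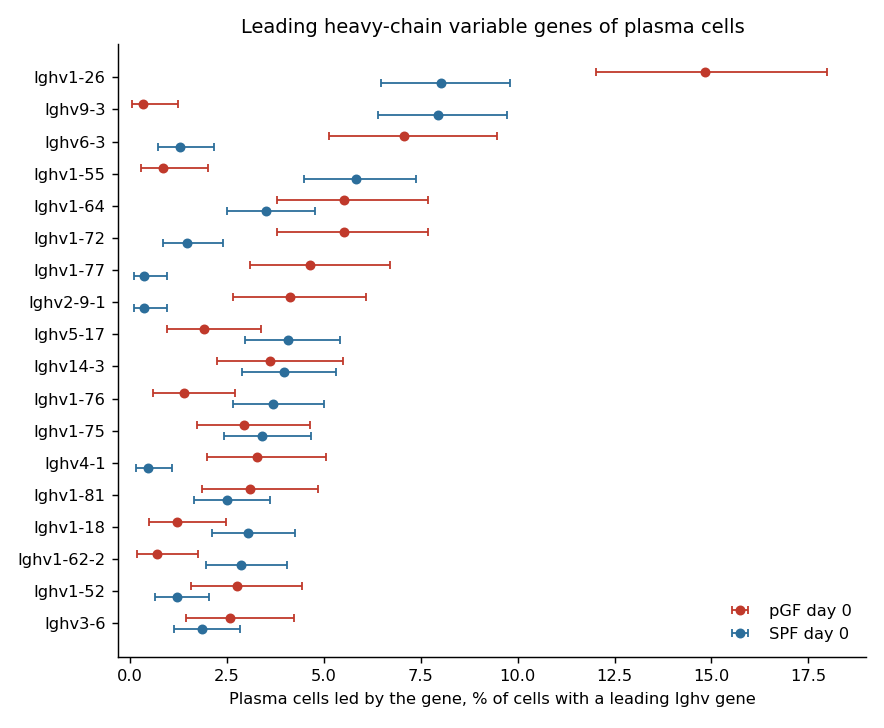
Share of plasma cells led by each heavy-chain variable gene, in percent of cells with a leading gene, in pGF (red, upper point) and SPF (blue, lower point) at day 0, for the 18 genes with the highest share in either library; bars are exact 95% binomial intervals. Ighv1-26 leads in both, at 14.8% in pGF and 8.03% in SPF, and Ighv9-3 is at 0.345% in pGF and 7.94% in SPF.

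The later days show which day 0 differences were seen again in separate libraries of the same arms, then under DSS, with antibiotics continued in the pGF mice. The epithelial metallothioneins were higher in pGF at day 2 too. Mt1 was at 2501 CPM in 1221 pGF cells and 680 CPM in 827 SPF cells at day 2, and Mt2 at 369 CPM in pGF against 81.3 CPM in SPF. At day 7 the pGF value of Mt1 was 2911 CPM in 85 cells, and SPF held 46 epithelial cells, under the 50 set for a comparison. Gsdmc4, Gsdmc2, Capg and Ly6m were lower in pGF at day 2 as well, with log2 folds of -1.31, -1.38, -1.08 and -0.76. In T cells Gzmb had log2 folds of -1.93 at day 2 and -2.28 at day 7, and Ccr7 of 1.13 and 2.20. In macrophages Thbs1 had log2 folds of -2.11 and -3.20, with 355 CPM in pGF against 1570 CPM in SPF at day 2, and 447 CPM and 4188 CPM at day 7.

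Other day 0 differences had another size or the opposite direction at a later day. In plasma cells Cxcl10 had log2 folds of 1.25 at day 2 and 1.38 at day 7, and Hspa1a was at 201 CPM in pGF against 40.4 CPM in SPF at day 2. In macrophages Slc40a1 had a log2 fold of -1.35 at day 2 and 2.49 at day 7, and Il10 of -0.50 and -0.77. Mt2, Dyrk3, Hspe1, Hist1h4i, Hist1h2bc and Ccnd2 in plasma cells also had the opposite direction at day 2. So did Cd36, Klrb1b, Hic1 and Slco3a1 in macrophages, and Trmt61b in T cells. Of the macrophage chemokines, Cxcl2 was at 3559 CPM in pGF against 12876 CPM in SPF at day 7, and Ccl4 was lower in pGF by then too, with a log2 fold of -1.17. Reg3b, at 6.90 CPM in the pGF epithelium of day 0, was at 99.2 CPM in pGF against 296 CPM in SPF at day 2, and 710 CPM in pGF at day 7. Among the counted epithelial genes that could be compared at day 2, 12 of the 13 higher and 23 of the 33 lower had the same sign. In macrophages 15 of 22 higher and 23 of 37 lower genes did, and in T cells 4 of 7 and 12 of 14. In plasma cells 2 of 6 lower genes did. At day 7 the same sign was held by 9 of 20 higher and 20 of 34 lower genes in macrophages, 4 of 7 and 11 of 13 in T cells, and 3 of 6 lower genes in plasma cells. Over all compared genes 50.1% were above 0 in epithelial cells, 45.3% in macrophages, 46.9% in T cells and 60.5% in plasma cells at day 2. At day 7 the share was 60.8% in macrophages, 45.7% in T cells and 66.2% in plasma cells.

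**Figure D5:**
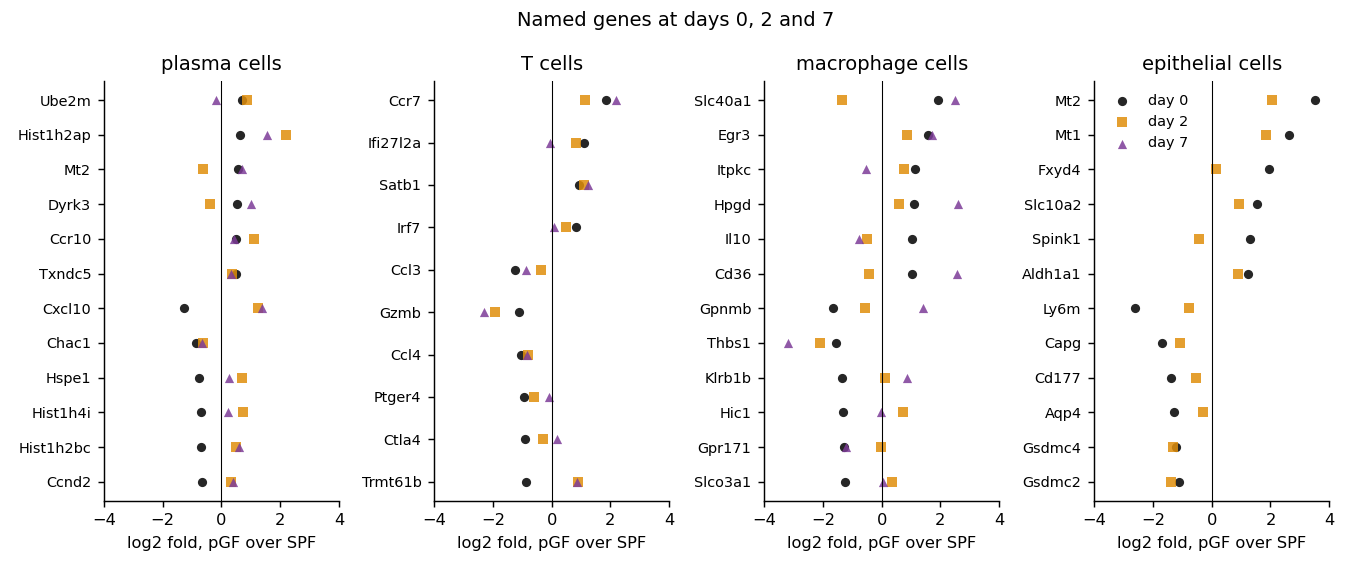
Log2 fold of pGF over SPF on the (CPM + 10) scale for genes named by rank in each class, at day 0 (black circles), day 2 (orange squares) and day 7 (purple triangles). Epithelial cells have no day 7 point because SPF held 46 such cells. Mt1, Mt2 and Gsdmc4 in epithelial cells, Gzmb in T cells and Thbs1 in macrophages keep their side at every day shown. In plasma cells Cxcl10, Mt2, Dyrk3, Hspe1, Hist1h4i, Hist1h2bc and Ccnd2 change side at day 2. In macrophages Slc40a1, Il10, Cd36, Klrb1b, Hic1 and Slco3a1 do, as do Trmt61b in T cells and Spink1 in epithelial cells.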

How the data were processed

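The deposited matrices hold UMI counts per gene and barcode, which the authors made with Cell Ranger 6.1.2 per the file headers. Per the submitters' processing notes, mm10, R 4.1.3 and Seurat 4.1.1 were also used. Libraries came from a Chromium 5′ kit, and receptor sequence libraries were not used here. Cells with at least 200 genes and at most 10% mt- UMIs were gated by marker genes (antibody genes left out of the plasma gate), and a cell that passed several gates went to the leader only if its level was 5 times the next. No doublet caller was used in the main values; an alternative removed 26 pGF and 75 SPF cells by a simulated-doublet score. Counts were summed per class, scaled to CPM and compared on log2(CPM + 10), with exact intervals that cover counting error only. PCR duplicates are collapsed by UMIs. Genes named by rank were the 6 furthest in each direction per class, among genes whose higher library had 50 CPM or more, from 20 UMIs or more in 10 cells or more, no cell holding over 25%, at a level at least 0.2 of that in the highest class. Antigen receptor, mt-, ribosomal protein, haemoglobin, Y-linked, Gm and Rik genes, Xist and Tsix were left out. Further, 2 genes that this rule gave are not reported here. The 33 gene lists, the markers and the comparison itself were chosen with earlier results of these data known. The summing, intervals and gates were tested on simulated data. Scripts ran under pandas 2.3.3, NumPy 2.4.6, scikit-learn 1.9.0 (doublet score) and SciPy 1.17.1 on Python 3.11.15; figures used matplotlib 3.10.9.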

Additional observations from a re-analysis of the deposited data

Results flagged for a closer look

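Some day 0 differences had the opposite direction at a later day, and since each day has 1 library a side, the change of direction was not tested. The share of epithelial cells had a log2 ratio of pGF over SPF of 0.70 at day 0 and -0.76 at day 2. The share of fibroblast or smooth muscle cells had one of 1.19 at day 0 and -5.82 at day 2. Cxcl10 in plasma cells had log2 folds of -1.26 at day 0, 1.25 at day 2 and 1.38 at day 7. Slc40a1 in macrophages had log2 folds of 1.90 at day 0 and -1.35 at day 2. Gpnmb in macrophages had log2 folds of -1.65 at day 0 and 1.41 at day 7.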

How the results depend on the processing

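No paired analysis was possible because each group is 1 library. None of the 48 genes named by rank changed sign in the 756 values computed over 18 settings. Not every gene had a value in every setting. The genes were chosen as the furthest apart in these same cells, so a kept sign is no independent support. Sizes did move, with lowest log2 folds of 0.21 for Aldh1a1, 0.66 for Fxyd4 and 0.62 for Ccr7. Of 90 share ratios 89 stayed within their counting interval. The exception was the plasma share, at -0.29 with antibody-rich ungated barcodes added, a setting chosen after seeing the data. The settings re-use the same cells, and rare classes have intervals too wide to leave easily, such as -6.00 to 4.15 for mast cells. The count of kept share ratios is thus no independent support. Counts of genes at least 2-fold apart depend on the processing. With a pseudocount of 1 they were 256 in T cells, 331 in macrophages and 163 in epithelial cells, against 87, 127 and 66 with a pseudocount of 10, and with a pseudocount of 50 they were 10, 30 and 24. With at least 50 CPM they were 36, 58 and 34, and with cells thinned to 2000 UMIs 231, 294 and 291. With the mean of per-cell CPM they were 192 in macrophages and 180 in epithelial cells, and at the 5% mitochondrial limit 210 in epithelial cells. Without antibody genes, also chosen after seeing the data, they were 14 in plasma cells, 35 in T cells and 74 in macrophages. The share of higher genes moved by over 10 points with thinning (58.9% in T and 47.4% in epithelial cells) and with a pseudocount of 50 (20% in T cells and 30.0% in macrophages), against 43.7%, 34.8% and 40.9%. It also moved to 50.0% in epithelial cells at the 5% mitochondrial limit. The median of the epithelial antigen presentation list turned from -0.66 to 0.062 with at least 50 CPM. That list had 2 measured genes, and 0.062 is the value of the higher of them. The median of the macrophage neutrophil granule list, also with 2 measured genes, turned from 0.88 to -0.066 with no minimum level. Among list medians that moved by over 0.25, a further 15 values had the other sign. At the 5% mitochondrial limit these were 6 epithelial lists, among them microbial sensing at -0.16 and crypt stem genes at 0.15, and the sign of both mucus and crypt medians also turned with thinning. With the mean of per-cell CPM they were the mucus list and the macrophage cell cycle list, at 0.16 and 0.02. With at least 50 CPM they were 5, among them the type I interferon list, at 0.24 in macrophages and -0.09 in epithelial cells, and clock genes, at -0.28 in T cells and -0.66 in macrophages. The cause of these shifts was not tested. Rare classes and goblet cells are limited by their number of cells.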
